A study of Mus musculus with 9 samples.

Results

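The transcripts described here are 10 genes that mark macrophages and other myeloid cells, measured in whole mouse kidney. They are Csf1r, Adgre1, Itgam, Ptprc, Lyz2, Mpeg1, Ctss, Cd68, Tyrobp and Fcer1g, chosen by name out of 54532 genes in the count files. Of these 10, all had a row in the files and 10 passed the filter on low counts, which kept 16646 genes. None of them (0 of 10) is in M7core, the STING-responsive gene list that the study followed.

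RNA-seq libraries were made from kidneys of 3 groups of C57BL/6J mice, with 3 libraries per group. One group was wild type (WT), the second was Trex1-/- mice given PBS, and the third was Trex1-/- mice given SN-011, with treatment for 2 weeks in the Trex1-/- groups. The labels do not say that the WT mice received an injection, and they give neither age nor sex. By the study's methods, Trex1-/- mice were bred from heterozygous matings and were a month old when treatment began, WT mice were purchased, and both agents were injected daily, with PBS (and a detergent) as the vehicle. TREX1 is an exonuclease that degrades DNA in the cytosol, where DNA otherwise activates the sensor cGAS and its adaptor STING. SN-011 blocks STING. The comparisons asked how these transcripts differed with the loss of Trex1 and with SN-011 given to Trex1-/- mice.

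Macrophages live in the interstitium of the healthy kidney as a network of resident cells, and monocytes from the blood add to them in inflammation. Survival of these cells depends on the receptor encoded by Csf1r, which binds the growth factors CSF1 and IL-34. Macrophages take up particles and debris into lysosomes, present antigen, and receive signals through surface receptors that borrow the adaptors encoded by Tyrobp and Fcer1g. No member is restricted to a single cell type. Ptprc is expressed by all leukocytes, Itgam also by neutrophils, and Fcer1g also by mast cells and platelets. In bulk kidney RNA, more cells of a type and more RNA per cell cannot be told apart.

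The libraries held 16118813 to 21928965 counted read pairs. Umod, Lrp2 and Slc12a1, which define kidney tubules, had means of 5390, 1880 and 2100 counts scaled to library size (CPM), as kidney tissue has. Libraries stood apart by their sex-linked transcripts. Transcripts of Uty, Ddx3y, Eif2s3y and Kdm5d, which lie on the Y chromosome, were summed and found at 153 to 188 CPM in all 3 Trex1-/- PBS libraries, in WT replicate 3 and in SN-011 replicate 2. The other 4 libraries had at most 0.377 CPM of these genes and 434 to 503 CPM of Xist. The counts and medians over the 10 genes are therefore also given with a term for Y-linked reads in the fit, and from the 5 libraries with such reads alone (1 WT, 3 Trex1-/- PBS and 1 SN-011). In the latter fit the spread comes from the 3 Trex1-/- PBS libraries, and the single WT and SN-011 libraries are assumed to vary like them. Blood transcripts varied among the libraries. The summed level of 10 erythroid and platelet genes was 609 to 1840 CPM in WT, 379 to 737 CPM in Trex1-/- PBS and 175 to 300 CPM in SN-011 kidneys, and its part in the results was not tested.

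Among the 10 genes, the level per exon length was highest for Lyz2, with a WT mean of 23.2 reads per kilobase of exon, scaled to library size (RPKM), where only exon bases not shared with another gene were counted. Csf1r followed at 14.9 RPKM and Ctss at 12.4 RPKM. Fcer1g at 8.48 and Tyrobp at 6.93 RPKM stood above Mpeg1 at 4.04, Cd68 at 3.48 and Adgre1 at 2.10 RPKM. Ptprc and Itgam were the lowest, at 0.582 and 0.466 RPKM. Neighbours in this order lay within their spread in several places. The WT SD was 1.31 RPKM for Csf1r and 4.20 for Ctss, and it was 2.13 for Fcer1g and 1.10 for Tyrobp. Itgam rested on 7 to 27 reads per library, the fewest of the 10, against 901 to 1784 reads for Csf1r. Most of the Itgam exon sequence (3450 of 5024 bases) is also annotated to the gene model Gm49368 on the same strand, and reads over such bases are not assigned to a gene at the default setting of featureCounts. The annotation and setting used were not given in the sources used here.

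In Trex1-/- PBS against WT, the fitted level of all 10 genes was higher, and 1 of them, Ctss, passed the test across all genes (edgeR's quasi-likelihood F test, adjusted p = 0.0403). The DESeq2 Wald test and the exact test of edgeR each called 6 of the 10 (Adgre1, Ctss, Fcer1g, Lyz2, Mpeg1 and Ptprc), and limma-voom called 2 (Ctss and Fcer1g). Over all genes these tools called 4.37%, 4.12% and 1.89%, in either direction. Ctss encodes cathepsin S, the lysosomal protease that trims the invariant chain from MHC class II. The log2 fold changes ran from 0.28 for Csf1r to 1.10 for Ctss, with a median of 0.88, which is 1.84-fold on the linear scale. The median over all 16646 genes was 0.00, with quartiles of -0.17 and 0.16. Of all genes, 1.44% were called higher. At an unadjusted p under 0.05, 9 of the 10 genes were higher, against 7.63% of all genes, and in 8 of 10 every Trex1-/- PBS library lay above every WT library, against 13.1%. A log2 fold change above 0 was found for 50.6% of all genes. These counts describe genes that vary together and are not independent of each other.

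**Figure D1:**
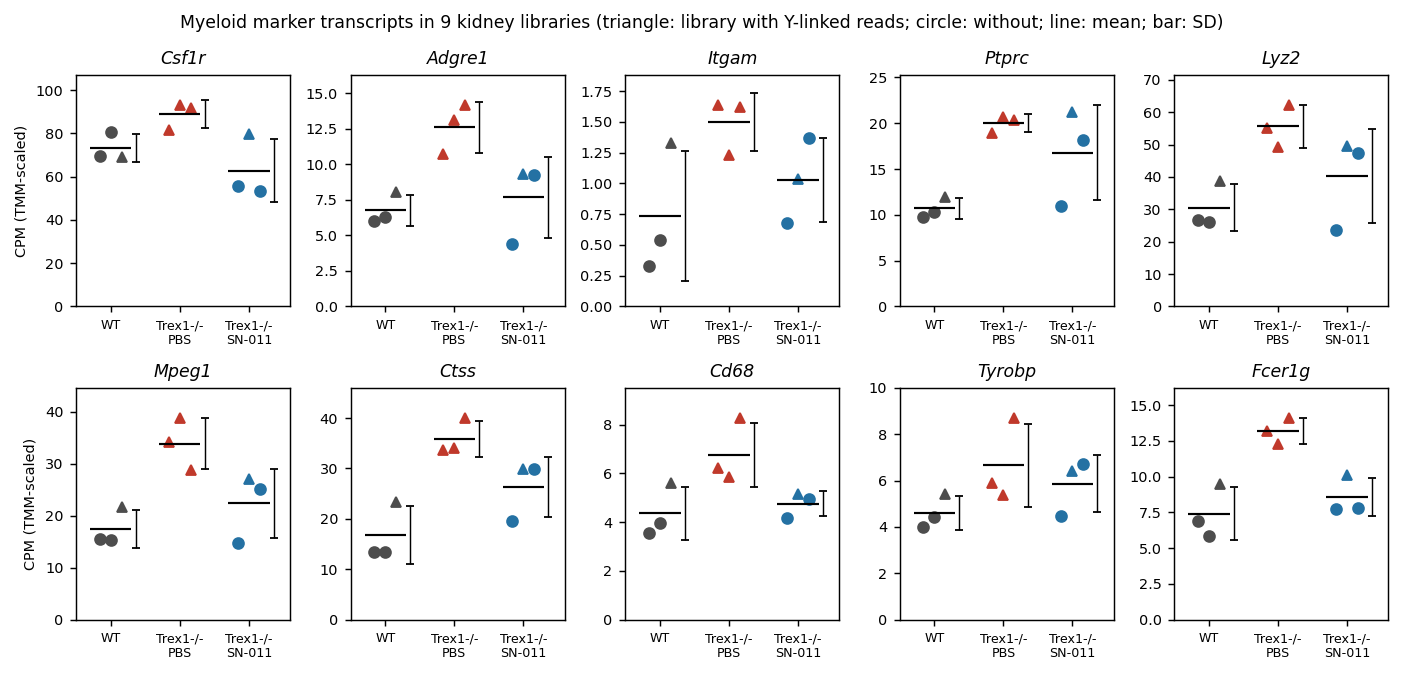
Level of each of the 10 genes in CPM (linear axis from 0, scaled by TMM) in the 9 libraries. Triangles are libraries with Y-linked reads, circles those without, lines are group means and bars are SDs (n = 3). In 8 panels all red Trex1-/- PBS points lie above all grey WT points, and Itgam and Tyrobp are the panels where they overlap.

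Csf1r, the receptor tyrosine kinase on which macrophages depend, had the smallest log2 fold change of the 10 in Trex1-/- PBS against WT, though not in the libraries with Y-linked reads alone, where those of Itgam, Cd68 and Tyrobp were smaller. Its level was 69.7, 80.6 and 69.2 CPM in WT replicates 1 to 3, and 81.4, 93.2 and 91.8 CPM in Trex1-/- PBS replicates. In SN-011 kidneys it was 55.5, 79.5 and 53.5 CPM. The Trex1-/- PBS libraries were the highest, though the lowest of them exceeded the highest WT library by less than 1 SD of either group, and the SN-011 libraries overlapped WT and lay below all Trex1-/- PBS libraries. The log2 fold change of Trex1-/- PBS against WT was 0.28 (SE 0.145), which did not pass the test (edgeR adjusted p = 0.394). SN-011 against PBS gave -0.50 (SE 0.146, edgeR adjusted p = 0.278). Csf1r lies on chromosome 18 (GRCm38, 61100598 to 61132149, plus strand), and 873 of its 5774 exon bases overlap Hmgxb3 on the opposite strand. The strand setting of the counting was not given in the sources used here, so reads of the pair could not be told apart there.

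Adgre1 encodes F4/80, an adhesion receptor that defines most mouse tissue macrophages. WT libraries had 5.99, 6.32 and 8.04 CPM, and Trex1-/- PBS libraries had 10.7, 13.1 and 14.2 CPM. With SN-011 the values were 4.42, 9.33 and 9.26 CPM. All Trex1-/- PBS libraries were above all others, while WT and SN-011 overlapped. The log2 fold change against WT was 0.90 (SE 0.261, edgeR adjusted p = 0.133). Under SN-011 the fitted level was lower than with PBS by the largest amount of the 10, with a log2 fold change of -0.72 (SE 0.261), and it did not pass the test (edgeR adjusted p = 0.342).

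Itgam encodes the integrin subunit CD11b, which pairs with the product of Itgb2 on monocytes, macrophages and neutrophils. It was at 0.33, 0.542 and 1.33 CPM in WT and at 1.64, 1.23 and 1.62 CPM in Trex1-/- PBS libraries. SN-011 libraries had 0.68, 1.04 and 1.37 CPM. All groups overlapped, and WT replicate 3 exceeded Trex1-/- PBS replicate 2. The log2 fold change of 1.06 had the widest error of the 10 (SE 0.469, edgeR adjusted p = 0.323), and it was 0.16 in the libraries with Y-linked reads. With a library left out it ran from 0.69 without WT replicate 1 to 1.75 without WT replicate 3.

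Ptprc encodes CD45, the phosphatase on the surface of every leukocyte. WT values were 9.76, 10.3 and 12.0 CPM, close to each other, and those of Trex1-/- PBS were 18.9, 20.7 and 20.4 CPM. SN-011 libraries had 11, 21.2 and 18.2 CPM, so that replicate 1 sat in the WT range and replicate 2 above the Trex1-/- PBS range. The log2 fold change of Trex1-/- PBS against WT was 0.91 (SE 0.204), just short of the threshold (edgeR adjusted p = 0.0557). SN-011 against PBS was -0.25 (SE 0.200, edgeR adjusted p = 0.671).

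Lyz2 and Mpeg1 encode proteins that attack microbes, the lysozyme of myeloid cells and the pore-forming perforin-2. Lyz2 was at 26.7, 26.1 and 38.8 CPM in WT and at 55.2, 49.2 and 62.3 CPM in Trex1-/- PBS kidneys. With SN-011 it was at 23.5, 49.6 and 47.5 CPM. One SN-011 library was below all WT libraries and another was within the Trex1-/- PBS range. The log2 fold changes of Lyz2 were 0.87 (SE 0.257, edgeR adjusted p = 0.141) against WT and -0.47 (SE 0.255, edgeR adjusted p = 0.517) for SN-011 against PBS.

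Mpeg1 was at 15.6, 15.3 and 21.7 CPM in WT and at 34.2, 38.8 and 28.8 CPM in Trex1-/- PBS libraries. SN-011 libraries held 14.8, 27.1 and 25.2 CPM of it. The Trex1-/- PBS libraries were higher than all of the others, and WT and SN-011 overlapped. Its log2 fold change against WT was 0.96 (SE 0.223, edgeR adjusted p = 0.0640), and SN-011 against PBS gave -0.60 (SE 0.221, edgeR adjusted p = 0.348).

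Ctss was at 13.5, 13.5 and 23.4 CPM in WT, and at 33.6, 34.0 and 40.0 CPM in Trex1-/- PBS kidneys. Under SN-011 it was at 19.5, 29.8 and 29.9 CPM. Each Trex1-/- PBS library exceeded every library of the other groups, WT replicates 1 and 2 were nearly equal, and WT replicate 3 lay inside the SN-011 range. The mean rose from 16.8 ± 5.70 to 35.8 ± 3.58 CPM (SD, n = 3 each), a log2 fold change of 1.10 (SE 0.229, edgeR adjusted p = 0.0403). This call was made in 12 of 20 alternative settings, with adjusted p-values from 0.000204 to 0.176. It was lost with the Y-linked term (log2 fold change 0.78, adjusted p = 0.109), in the libraries with Y-linked reads alone (0.61, adjusted p = 0.126, with 1 WT library), and when any of 6 libraries was left out. These were WT replicate 1 (adjusted p = 0.170), WT replicate 2 (0.176), Trex1-/- PBS replicates 1 (0.108), 2 (0.119) and 3 (0.131), and SN-011 replicate 3 (0.0505). SN-011 against PBS gave -0.44 (SE 0.226, edgeR adjusted p = 0.495).

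The promoter of Ctss is shown because Ctss was the gene called, beside that of Fcer1g, which had a near-threshold p-value and neither of the motifs given here. Both are RefSeq sequences of GRCm38.p6 from 250 bases before to 50 bases after the annotated start site, on the gene's strand. Ctss is at chr3:95526536-95526835 on the plus strand and Fcer1g is at chr1:171234300-171234599 on the minus strand. Capitals mark motif matches. The motifs given here, searched on both strands, are a PU.1 box (GAGGAAGT), bound by the myeloid factor encoded by Spi1, and an interferon-stimulated response element (GAAANNGAAA).
Ctss: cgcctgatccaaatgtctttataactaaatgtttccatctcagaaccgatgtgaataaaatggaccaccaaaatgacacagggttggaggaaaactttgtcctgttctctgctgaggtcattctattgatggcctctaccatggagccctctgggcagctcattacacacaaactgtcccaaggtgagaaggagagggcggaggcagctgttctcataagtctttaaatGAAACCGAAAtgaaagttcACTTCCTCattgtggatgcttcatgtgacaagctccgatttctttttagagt
Fcer1g: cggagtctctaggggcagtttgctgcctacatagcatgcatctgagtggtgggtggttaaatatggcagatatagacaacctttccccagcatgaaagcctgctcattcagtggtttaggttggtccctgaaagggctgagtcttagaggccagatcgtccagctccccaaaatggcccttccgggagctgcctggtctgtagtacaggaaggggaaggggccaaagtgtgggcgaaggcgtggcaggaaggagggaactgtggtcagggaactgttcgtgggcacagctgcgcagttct
In Ctss, the interferon-type match began 21 bases before the start site and the PU.1 box, on the reverse strand, began 2 bases before it, and the matches did not overlap. Among 32851 mouse promoters, 3.20% held the PU.1 box and 3.44% the interferon-type element. RefSeq promoters were at hand for 7 of the 10 genes, which were Lyz2, Mpeg1, Ctss, Cd68, Itgam, Ptprc and Fcer1g. Neither motif matched in the other 6. A match is a run of letters and was not tested as a binding site.

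Cd68 encodes macrosialin, a heavily glycosylated protein of macrophage lysosomes. It was at 3.54, 3.97 and 5.61 CPM in WT and at 6.21, 5.84 and 8.27 CPM in Trex1-/- PBS libraries. The SN-011 libraries had 4.19, 5.16 and 4.93 CPM. Trex1-/- PBS libraries were above the rest, but Trex1-/- PBS replicate 2 was close to WT replicate 3. The log2 fold change of 0.63 (SE 0.219) against WT did not pass the test (edgeR adjusted p = 0.202), nor did -0.51 (SE 0.219) for SN-011 against PBS (edgeR adjusted p = 0.419).

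Tyrobp and Fcer1g encode short membrane adaptors, DAP12 and the Fc receptor gamma chain, which carry the activation motifs for receptors that lack their own. Tyrobp had 4.01, 4.43 and 5.44 CPM in WT, and 5.91, 5.37 and 8.70 CPM in Trex1-/- PBS kidneys. Its SN-011 values were 4.48, 6.43 and 6.71 CPM, and all groups overlapped. The log2 fold change was 0.53 (SE 0.237, edgeR adjusted p = 0.328) against WT and -0.18 (SE 0.236, edgeR adjusted p = 0.806) for SN-011 against PBS, the smallest of the 10.

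Fcer1g differed more clearly than Tyrobp in its separation of the groups. It was at 6.88, 5.87 and 9.49 CPM in WT and at 13.2, 12.3 and 14.1 CPM in Trex1-/- PBS libraries, which stood above all others. SN-011 kidneys had 7.76, 10.1 and 7.84 CPM, within or slightly above the WT range. Its log2 fold change was 0.83 (SE 0.189, edgeR adjusted p = 0.0583) against WT, and -0.62 (SE 0.188, edgeR adjusted p = 0.283) for SN-011 against PBS. Whether Fcer1g and Tyrobp differed from each other in their change was not tested.

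**Figure D2:**
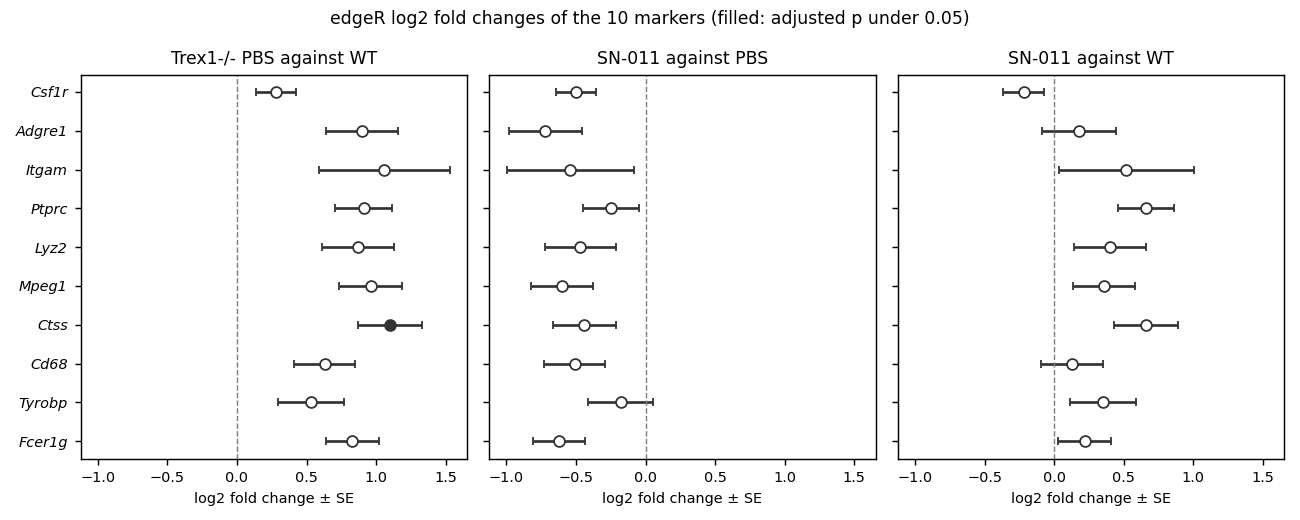
Log2 fold change ± SE of each gene in the 3 comparisons, from the edgeR fit of all 9 libraries. The filled point is the single call, Ctss in Trex1-/- PBS against WT, and every point lies right of 0 in that panel and left of 0 for SN-011 against PBS.

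The summed level of the 10 genes was 156, 167 and 195 CPM in WT and 261, 274 and 290 CPM in Trex1-/- PBS libraries. In SN-011 libraries it was 146, 239 and 204 CPM. Trex1-/- PBS libraries were thus above all others, and SN-011 replicate 1 was below every WT library. Single libraries shaped the groups. WT replicate 3, the WT library with Y-linked reads, was the highest of WT for 9 of the 10 genes, and SN-011 replicate 1 was the lowest of its group for 9 of 10. SN-011 replicate 2, with Y-linked reads, was the highest of its group for 7 of 10.

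With the Y-linked term, the log2 fold changes of Trex1-/- PBS against WT ran from 0.12 for Csf1r to 0.78 for Ctss, with a median of 0.58, and 0 of 10 genes passed the test in edgeR, with 5 at an unadjusted p under 0.05, against 1.19% and 10.9% of all genes in either direction. In the 5 libraries with Y-linked reads the median was 0.49, with 0 calls by edgeR and 7 at an unadjusted p under 0.05, from a single WT library, against 1.43% and 12.4% of all genes. All 10 fitted changes were above 0 in both fits. The group difference and the sex-linked difference overlap in this design, since no Trex1-/- PBS library lacked Y-linked reads. Within the 4 libraries without Y-linked reads, the summed level was 156 and 167 CPM in WT and 146 and 204 CPM with SN-011.

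**Figure D3:**
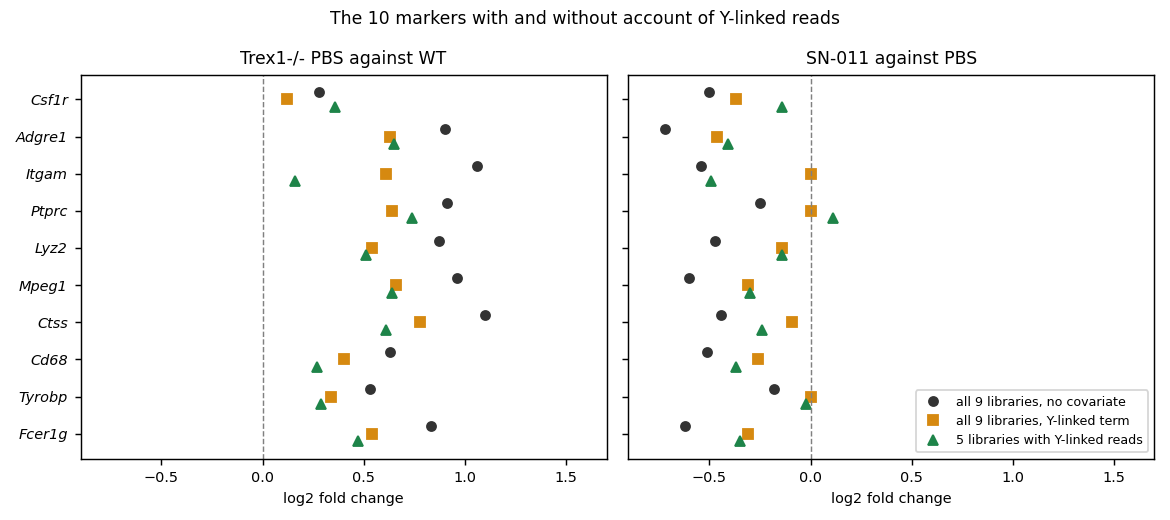
Log2 fold change of each gene without a covariate (circles), with a term for Y-linked reads (squares) and in the 5 libraries with Y-linked reads only (triangles). In Trex1-/- PBS against WT all symbols are right of 0, and squares are left of circles for all 10 genes, while for SN-011 against PBS most squares and triangles lie nearer to 0 than the circles.

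For SN-011 against PBS in Trex1-/- mice, all 10 fitted levels were lower and 0 of 10 passed the test in edgeR, as for the whole table, where 0.0% of genes were called. The median log2 fold change was -0.50, against -0.01 over all genes. At an unadjusted p under 0.05, 5 genes were lower (Csf1r, Mpeg1, Adgre1, Cd68 and Fcer1g), against 5.68% of all genes. The groups did not overlap for these 5 genes and for Ctss, against 8.41% of all genes, and 51.1% of all genes had a log2 fold change below 0. Limma-voom, the DESeq2 Wald test and the exact test of edgeR called 0 of the 10, where they called 0.0%, 1.10% and 0.763% of all genes. Without SN-011 replicate 2, Csf1r was called at a log2 fold change of -0.71 (edgeR adjusted p = 0.0107), the lowest of its alternatives, which ran up to 0.678. Without that library 519 of all genes were called, and the SN-011 libraries left in the fit lacked the Y-linked reads of all Trex1-/- PBS libraries. Csf1r was at -0.37 with the Y-linked term and at -0.14 in the libraries with Y-linked reads alone. With the Y-linked term the median was -0.20, and Itgam, Ptprc and Tyrobp were at 0.00, with 0 calls by edgeR and 1 gene at an unadjusted p under 0.05, against 0.0% and 9.86% of all genes. In the libraries with Y-linked reads alone, which hold 1 SN-011 library, the median was -0.27 with 0 calls by edgeR and 0 at an unadjusted p under 0.05, against 0.616% and 15.4% of all genes. The comparison of Trex1-/- PBS with WT uses the same PBS libraries, so the opposite directions are not independent of each other.

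The SN-011 mean lay between the WT and the Trex1-/- PBS mean for 9 of the 10 genes, against 35.5% of the tested genes whose Trex1-/- PBS mean was above the WT mean. For Csf1r it was below both, at 62.8 ± 14.4 CPM against 73.2 ± 6.42 in WT (SD, n = 3 each). Against WT, 0 of 10 genes passed the test in edgeR, where 1.28% of all genes did. Ptprc (log2 fold change 0.66, SE 0.204, edgeR adjusted p = 0.142) and Ctss (0.66, SE 0.229, edgeR adjusted p = 0.177) were the 2 genes higher at an unadjusted p under 0.05, against 9.88% of all genes. No gene of the 10 was higher without overlap, against 11.8% of all genes. The fitted level was above 0 for 9 genes, against 49.5%, with a median of 0.35 (0.35 with the Y-linked term and 0.25 in the libraries with Y-linked reads alone) and with Csf1r at -0.22 (SE 0.145). Ctss was called with the Y-linked term (0.69, edgeR adjusted p = 0.0457) and without WT replicate 3 (edgeR adjusted p = 0.0406), with adjusted p-values up to 0.421 over its alternatives. Ptprc was called without SN-011 replicate 1 (edgeR adjusted p = 0.0130, up to 0.325 over its alternatives). Among all genes, in either direction, the fit with the Y-linked term called 656 and the main fit called 213. Leaving out WT replicate 3 gave 245 such calls, and leaving out SN-011 replicate 1 gave 215. Limma-voom, the DESeq2 Wald test and the exact test of edgeR called 0 of the 10, each with 2 at an unadjusted p under 0.05, where 1.08%, 4.91% and 3.59% of all genes were called and 18.1%, 17.0% and 15.3% had such a p. In the libraries with Y-linked reads alone edgeR called 0 of the 10, with 1 at an unadjusted p under 0.05, against 2.05% and 20% of all genes.

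The genes that act with the 10 were followed in lists. Like the 10, these lists were chosen with earlier results of these data known. Over all genes, 1.88% were called in either direction in Trex1-/- PBS against WT and 15.2% had an unadjusted p under 0.05, and the list counts below stand beside these shares. Among 12 genes of the CSF1 axis and the myeloid transcription factors, 0 rose and 1 fell in Trex1-/- PBS against WT by edgeR's quasi-likelihood test, with 4 at an unadjusted p under 0.05. The DESeq2 Wald test and the exact test also called Csf1, Irf8 and Spi1, which were higher. The gene that fell was Maf, a factor that the kidney expresses at a mean of 257 CPM, with a log2 fold change of -0.42 (SE 0.0869, edgeR adjusted p = 0.0394). The ligand Csf1 was at 0.56 (SE 0.152, edgeR adjusted p = 0.108). Spi1, which encodes PU.1, was at 0.68 (edgeR adjusted p = 0.0640), and Irf8, a factor of monocytes and dendritic cells, at 0.50 (edgeR adjusted p = 0.0682). The list's median was 0.13, and with the Y-linked term Maf was at -0.47 (edgeR adjusted p = 0.0501).

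Of 15 tested genes of kidney resident macrophages, 4 rose and 0 fell. They were C1qa, C1qb and C1qc, which encode the chains of complement C1q, and Cd74, the invariant chain of MHC class II. C1qa had a log2 fold change of 0.94 (SE 0.159, edgeR adjusted p = 0.0133) and C1qc of 0.96 (SE 0.183, edgeR adjusted p = 0.0253). C1qb was at 0.79 (SE 0.171, edgeR adjusted p = 0.0483) and Cd74 at 1.44 (SE 0.237, edgeR adjusted p = 0.0113), and Cd74 is also expressed by B cells and by kidney cells exposed to interferon. Of the 15 fitted changes 11 were above 0 and 4 below, from -0.74 to 1.66, so the list did not move as a whole. The list's median was 0.76, and the DESeq2 Wald test and the exact test also called Lyve1 (1.66). With the Y-linked term Cd74 was called at 1.16, and C1qa at 0.77 (edgeR adjusted p = 0.0677), C1qc at 0.73 (edgeR adjusted p = 0.0899) and C1qb at 0.54 (edgeR adjusted p = 0.177) were not.

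Among 10 tested monocyte genes, 2 rose and 1 fell. Ly6c2, which marks inflammatory monocytes and is also inducible by interferon, was at 2.76 (SE 0.358, edgeR adjusted p = 0.00256), and Plac8 was at 1.5 (SE 0.224, edgeR adjusted p = 0.00638). Vcan, a matrix proteoglycan of monocytes and stroma, was at -1.32 (SE 0.221, edgeR adjusted p = 0.0125). Fcgr4 was at 0.90 (edgeR adjusted p = 0.187). Both rises were called with the Y-linked term, where Vcan was at -1.14 (edgeR adjusted p = 0.0750).

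The receptors that signal through Tyrobp or Fcer1g, with the kinases below them, had 3 of 18 tested genes that rose and 0 that fell. Fcgr1, the high-affinity IgG receptor that pairs with the product of Fcer1g, was at 1.69 (SE 0.259, edgeR adjusted p = 0.00721). Lcp2, the adaptor SLP-76, was at 1.34 (SE 0.284, edgeR adjusted p = 0.0436). Of 11 tested integrin and adhesion genes, 3 rose and 0 fell. Itgb2, the partner of Itgam, was at 1.19 (SE 0.199, edgeR adjusted p = 0.0125). Itgal and Itgb7, integrins used by lymphocytes, were at 1.22 (edgeR adjusted p = 0.0161) and 1.18 (edgeR adjusted p = 0.00482). The exact test called 7 of the receptor and kinase genes and 5 of the integrin and adhesion genes, and the DESeq2 Wald test called 4 and 5. With the Y-linked term Fcgr1, Itgb2 and Itgb7 were called, while Lcp2 was at 1.10 (edgeR adjusted p = 0.202) and Itgal at 0.98 (edgeR adjusted p = 0.0922).

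The list of interferon-inducible macrophage genes had the most calls, with 9 of 14 that rose and 0 that fell. Which cells of the kidney expressed these genes was not tested. Siglec1, which encodes the sialic acid receptor CD169, was at 2.61 (SE 0.293, edgeR adjusted p = 0.00108). Slfn4 was at 3.32 (SE 0.425, edgeR adjusted p = 0.00238), Ms4a6d at 2.57 (SE 0.357, edgeR adjusted p = 0.00412) and Cd274, which encodes PD-L1, at 1.37 (SE 0.176, edgeR adjusted p = 0.00238). The list's median was 1.95, with 7 of 14 called with the Y-linked term. Of 13 tested genes of lysosomal proteases and membranes, 0 passed in edgeR, DESeq2, the exact test or limma-voom, 1 had an unadjusted p under 0.05 in edgeR, and the median was 0.00. Ctsd was at -0.20 (edgeR adjusted p = 0.382) and Ctsc at 0.47 (edgeR adjusted p = 0.138), in contrast to the value of 1.10 for Ctss, though the difference between the genes was not tested.

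Markers of other leukocytes moved with the 10 genes in part. Of 10 tested T and NK cell markers, 2 rose (Cd3g at 1.90 and Cd4 at 1.61, edgeR adjusted p = 0.0329 for each) and all 10 were above 0. The DESeq2 Wald test and the exact test called 5, with Cd8a, Cd8b1 and Lck added. Their summed level was 10 to 14.8 CPM in WT, 24.5 to 40.0 in Trex1-/- PBS and 12.9 to 27.1 with SN-011, and with the Y-linked term edgeR called 0 of the 10, with 4 at an unadjusted p under 0.05, Cd3g at 1.64 and Cd4 at 1.41. Of 7 tested B and plasma cell markers, 1 rose, Jchain at 1.99 (SE 0.355, edgeR adjusted p = 0.0175), with a summed level of 35.5 to 41.6, 50.7 to 55.7 and 39.7 to 57.3 CPM in the same order. Ms4a1 and Pax5, which mark B cells, were too low to be tested. The part of these cells in the level of Ptprc, which they express, was not tested.

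Neutrophil genes gave 0 calls among 6 tested in edgeR, with 2 at an unadjusted p under 0.05, and 1 call by the DESeq2 Wald test, S100a8. They had S100a8 at 1.98 (SE 0.638, edgeR adjusted p = 0.171), S100a9 at 1.06 and Csf3r at 1.07. The 6 other genes, among them Ly6g and Mpo, were too low to be tested. The summed level of all 12 was 3.57 to 9.72 CPM in WT, 8.23 to 14.7 in Trex1-/- PBS and 6.86 to 15.4 with SN-011. Of 10 tested dendritic cell genes, 0 passed in edgeR's quasi-likelihood test, 2 had an unadjusted p under 0.05, and the median was -0.01, with Clec9a at 0.26 and Itgax at 0.59. Cd209a, which averaged 0.443 CPM and is named after its values were seen, was at -3.12 (SE 0.781, edgeR adjusted p = 0.0808), and the DESeq2 Wald test and the exact test called it. Mast cell markers had means below 1 CPM apart from Kit, which the kidney itself expresses, with Fcer1a at 0 reads in all 9 libraries. None of the 7 tested blood genes (2 at an unadjusted p under 0.05), and none of the 5 tested fat genes (0 at that level), passed in edgeR in this comparison. In the libraries with Y-linked reads alone, with 1 WT library, 3 of 9 tested blood genes were called (Alas2, Hba-a1 and Hbb-bs; 6 at an unadjusted p under 0.05) and 5 of 6 tested fat genes had an unadjusted p under 0.05. Of the 12 kidney epithelium and endothelium genes, 1 was called, Slc5a2 at -0.71 (SE 0.126, edgeR adjusted p = 0.0163). Slc5a2 was not called once the Y-linked term was added (-0.58, edgeR adjusted p = 0.0701), nor in the libraries with Y-linked reads alone.

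**Figure D4:**
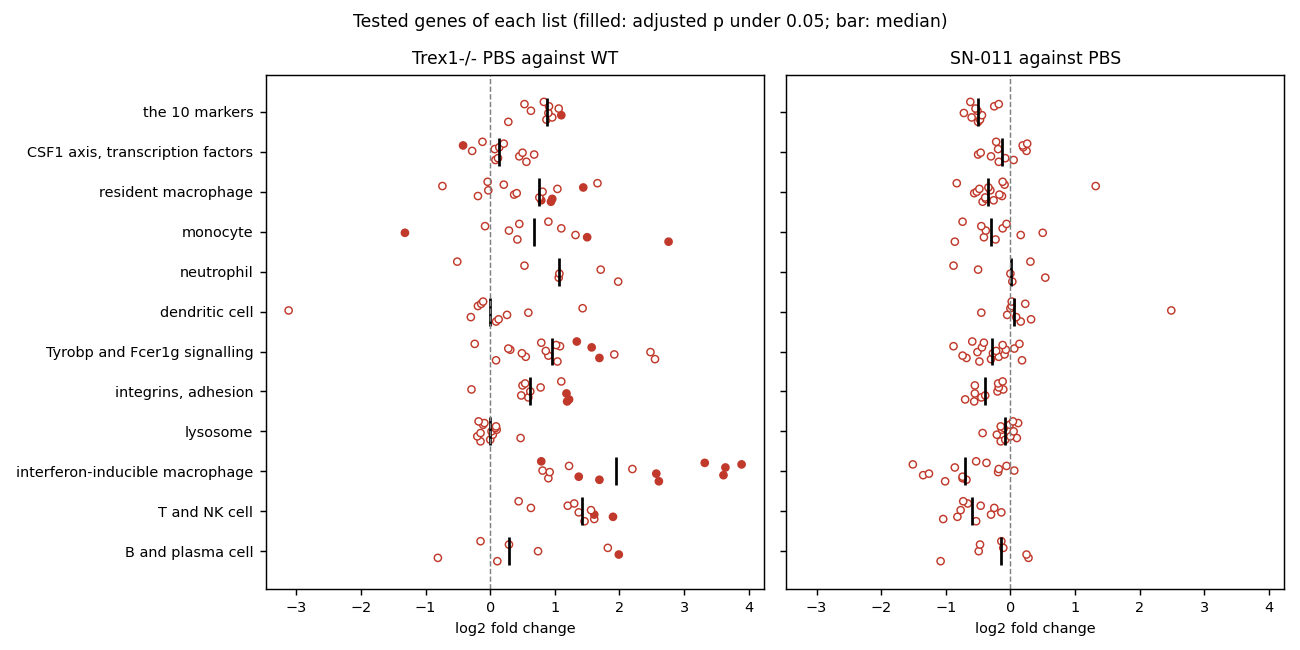
Log2 fold change of the tested genes in each list, for Trex1-/- PBS against WT (left) and SN-011 against PBS (right). Bars are medians and filled points passed at an adjusted p under 0.05. The interferon-inducible list has the most filled points on the left (9 of 14), the 10 markers have 1, and there are none on the right.

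In SN-011 against PBS, 0 genes of any list passed in edgeR. At an unadjusted p under 0.05 there were 8 of the interferon-inducible macrophage genes, 5 blood genes, 4 integrin and adhesion genes and at most 3 of any other list, where 11.4% of all genes had such a p. The DESeq2 Wald test called 3 of the interferon-inducible macrophage genes, and edgeR's exact test called 2 of these and 1 blood gene. The list medians were -0.34 for resident macrophage genes, -0.30 for monocyte genes, -0.28 for Tyrobp and Fcer1g signalling, -0.39 for integrins, -0.71 for interferon-inducible macrophage genes and -0.60 for T and NK cell markers. They were 0.02 for neutrophil genes, 0.06 for dendritic cell genes, -0.08 for lysosomal genes and -1.58 for blood genes. With the Y-linked term several medians lay nearer to 0, at -0.08 for resident macrophage genes, -0.04 for monocyte genes, -0.20 for Tyrobp and Fcer1g signalling, -0.14 for integrins, -0.55 for interferon-inducible macrophage genes, -0.34 for T and NK cell markers, -0.02 for lysosomal genes and -1.02 for blood genes, while those of neutrophil and dendritic cell genes were 0.47 and 0.16. Against WT, SN-011 kidneys had higher Ly6c2 (1.90, edgeR adjusted p = 0.0379), Plac8 (1.09, edgeR adjusted p = 0.0479), Siglec1 (1.59, edgeR adjusted p = 0.0332), Slfn4 (2.95, edgeR adjusted p = 0.0119) and Jchain (2.24, edgeR adjusted p = 0.0185). Of the interferon-inducible macrophage genes 2 were called in this comparison, against 9 by the DESeq2 Wald test, 8 by the exact test, 2 by limma-voom and 5 with the Y-linked term. In the libraries with Y-linked reads alone 3 were called (Cxcl9, Ms4a4c and Tlr7), without Siglec1 and Slfn4, and limma-voom did not call Ly6c2. Of the resident macrophage genes 0 were called against WT in the main fit, with Cd74 at 1.10 (edgeR adjusted p = 0.0557). The DESeq2 Wald test and the exact test called Cd74, and edgeR with the Y-linked term called C1qb, C1qc and Cd74. Hba-a1 and Hbb-bs, the globins of red cells, were lower in SN-011 kidneys than in WT at -2.92 (edgeR adjusted p = 0.0205) and -2.58 (edgeR adjusted p = 0.0424).

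Across the 9 libraries, each of the 10 genes was compared with the mean of the other 9 on the log2 scale, as a description of libraries that share groups and depth. Pearson's r was 0.967 for Lyz2, the highest, and between 0.833 and 0.945 for Mpeg1, Ctss, Adgre1, Cd68, Itgam, Ptprc, Tyrobp and Fcer1g. Csf1r stood lower, at 0.482. Among 14832 other genes, the pattern most like the mean of the 10 was that of Rac2, a small GTPase of leukocytes (r = 0.974, n = 9 libraries), followed by Laptm5, a lysosomal protein of immune cells (0.971). The next were Dazap2, Gimap3, Nudcd2, Gm11992, Arhgap45, Clec4a1, an immunoglobulin kappa variable gene and Il10ra, with r from 0.962 to 0.967. These genes were picked for a pattern that is itself highest in the Trex1-/- PBS group, so their differences are given as a description. For Trex1-/- PBS against WT the log2 fold change was 1.13 for Rac2, 1.49 for Clec4a1 and 0.09 for Dazap2.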

How the data were processed

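Strand-specific, paired-end sequencing of polyA-selected RNA was performed on 9 kidney libraries. The authors trimmed the reads with Trimmomatic, aligned them with HISAT2 and deposited raw counts that featureCounts gave for each gene from uniquely mapped pairs. The build was mm10 by the submitters' processing notes. Versions, annotation and strand setting were not given in the sources used here. Reads over exons shared by genes are not assigned by featureCounts by default, and how many were lost for Itgam was not measured. Of the gene identifiers, 54495 matched GENCODE vM21 (GRCm38) and 37 did not. Trex1 was not used as a check of genotype, which rests on the labels.

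The edgeR 4.0.16 package of R 4.3.3 was used, with filterByExpr (minimum 10, total 15 reads) leaving 16646 genes. All 9 libraries entered 1 quasi-likelihood fit with TMM scaling and 1 mean for each group, without covariates, and p-values were Benjamini-Hochberg adjusted over all genes tested, with a call under 0.05. CPM and RPKM were computed here from the counts, RPKM over exon bases not shared with other genes. The log2 values compared with the mean pattern had a prior count of 2. SEs were derived from the F statistic. The labels do not tie each library to an animal, although the study gives 3 per group, and p-values measure the spread between these libraries. A further motif and some list genes are not reported here.

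The members and gene lists were chosen with earlier results of these data known. Named genes were the 10 members, up to 4 genes per list by lowest p in Trex1-/- PBS against WT that had a mean of at least 1 CPM, the 10 genes most like the members, and genes called in a list. Alternatives were DESeq2 1.42.0 size factors, upper-quartile factors, no filter, a mean of at least 50 counts, limma-voom (limma 3.58.1), the exact test of edgeR, the Wald test of DESeq2, only the 6 libraries compared, a replicate block, a Y-linked term, Y-linked libraries only, and leaving out each library. The steps were tested on simulated data.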

Additional observations from a re-analysis of the deposited data

How the results depend on the processing

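Over 20 alternative settings, all 10 genes kept a log2 fold change above 0 in Trex1-/- PBS against WT, except that Itgam was left out of the fit at a mean of at least 50 counts. The number of the 10 called, 1 as reported, was 6 without a filter on low counts, with only the 6 libraries compared, with the DESeq2 Wald test and with edgeR's exact test (Adgre1, Ctss, Fcer1g, Lyz2, Mpeg1 and Ptprc each time). It was 2 with limma-voom and with the replicate block, 0 with the Y-linked term and in the Y-linked libraries only, and 0 to 5 with a library left out. Over all genes 1.88% were called as reported, 4.37% with the DESeq2 Wald test, 4.12% with the exact test, 1.89% with limma-voom and 1.19% with the Y-linked term. Calls over all genes were 707 of 30892 without a filter and 751 with only the 6 libraries compared. They were 312 with the replicate block and 153 to 774 with a library left out. The median log2 fold change of the 10, 0.88 as reported, was 0.58 with the Y-linked term, 0.49 in Y-linked libraries only and 0.78 to 1.04 with a library left out.

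For SN-011 against PBS, 0 to 1 of the 10 were called with a library left out, where 0 to 519 of all genes were. The median of the 10 was -0.20 with the Y-linked term and -0.61 to -0.34 with a library left out. Fitted changes reached or crossed 0 for Itgam (0.00) and Tyrobp (0.00) with the Y-linked term, for Ptprc in Y-linked libraries only (0.11) and for Tyrobp without Trex1-/- PBS replicate 3 (0.06, with -0.31 as the other end of the range over libraries left out). For SN-011 against WT, 1 of the 10 was called with the Y-linked term, where 3.94% of all genes were. With a library left out 0 to 1 of the 10 were called, where 38 to 376 of all genes were, and the median of the 10 was 0.20 to 0.54. In Y-linked libraries only, Csf1r was at 0.22, Cd68 at -0.10 and Itgam at -0.33, and Cd68 ran from 0.00 without WT replicate 1 to 0.34 with another library left out. The cause of these shifts was not tested, beyond the fewer libraries in the fits that leave some out.

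Replicate numbers were not used as pairs in the main fit. Correlations of same-numbered libraries ran from -0.294 to 0.242, and not every library correlated best with its own number. The lowest was that of SN-011 replicate 2 with WT replicate 2, which differed in Y-linked reads. These values therefore cannot settle whether the numbers pair the libraries. Between Trex1-/- PBS and SN-011 each PBS library did correlate best with its own number, at 0.198, 0.242 and 0.0981, while the labels tie these numbers to no shared batch. With the replicate block, 2 of the 10 genes (Ctss and Ptprc) were called in Trex1-/- PBS against WT and 0 in the other comparisons. Counts over all genes for the 3 comparisons, 313, 0 and 213 as reported, were 312, 0 and 231 with the block, 198, 0 and 656 with the Y-linked term, 249, 107 and 356 in Y-linked libraries only, 726, 183 and 816 with the DESeq2 Wald test, 686, 127 and 597 with edgeR's exact test, 707, 127 and 607 without a filter, and 751, 0 and 43 with only the 6 libraries compared. With a library left out they were 153 to 774, 0 to 519 and 38 to 376. Itgam rested on 7 to 27 reads per library, the fewest of the 10.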

Other observations

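The level of each gene was also set against that of Ptprc in the same library, a ratio chosen after the data were seen. Csf1r to Ptprc was 7.14, 7.86 and 5.78 in WT, 4.31, 4.50 and 4.49 in Trex1-/- PBS, and 5.03, 3.75 and 2.94 in SN-011 libraries. Every library of both Trex1-/- groups was below every WT library, and no background share over all genes was computed for such ratios. The exact two-sided permutation test gave p = 0.1 for Trex1-/- PBS against WT, the smallest p that 3 against 3 libraries allow, and the value adjusted over the 9 ratios was 0.675. For SN-011 against WT the exact permutation p was also 0.1, with an adjusted value of 0.225. The ratio of Lyz2 to Ptprc was 2.54 to 3.24 in WT, 2.37 to 3.05 in Trex1-/- PBS and 2.12 to 2.62 in SN-011 libraries, so that the groups overlapped. The ratio of Mpeg1 to Ptprc was 1.49 to 1.81 in WT, 1.41 to 1.87 in Trex1-/- PBS and 1.28 to 1.39 with SN-011, and that of Adgre1 to Ptprc was 0.614 to 0.671 in WT, 0.565 to 0.693 in Trex1-/- PBS and 0.400 to 0.510 with SN-011, so that for both genes all SN-011 libraries were below those of the other groups (exact two-sided permutation p = 0.1 for SN-011 against PBS, adjusted 0.45 over 9 ratios, for each gene). Tyrobp to Ptprc was 0.411 to 0.454 in WT, 0.259 to 0.426 in Trex1-/- PBS and 0.303 to 0.405 with SN-011, below WT in every SN-011 library (exact two-sided permutation p = 0.1, adjusted 0.225). The other ratios, of Ctss, Cd68, Itgam and Fcer1g, overlapped between all groups.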
